A study of Mus musculus with 3 samples.

Results

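The GADD45 genes of mouse, Gadd45a, Gadd45b and Gadd45g, were followed across the cell types of dorsal skin and across 3 libraries. They are 3 of the 32285 genes in the count matrices and were found by their symbols. They had been picked on their measured values, because earlier results of these data showed them changing differently between cell types, so their levels and contrasts are given here as a description with no test. The study asked how chronic ultraviolet light alters skin cells and how topical blockade of JAK1/2 changes that state. C57BL/6J wild-type mice, recorded as female and 8 weeks old, gave 1 library of full-thickness dorsal skin per condition. The paper gives that age for the mice as purchased, before any exposure, and their age when skin was taken was not stated. CON was not irradiated. UV was exposed over 12 weeks, on alternate days, to a mixed source (UVB 3.5 mW/cm2, UVA 0.6 mW/cm2), and like CON received the vehicle. Rux received the same light and, after each exposure, an ointment with 1.5% ruxolitinib, an inhibitor of JAK1 and JAK2. Skin was taken a day after the last exposure, and the number of mice in a library was not stated.

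GADD45 proteins are small acidic proteins without a known enzymatic activity of their own. They bind and open the kinase MAP3K4, which starts the p38 and JNK stress pathways, and they bind PCNA, the cyclin B1-CDK1 complex and the p21 protein, which links them to cell-cycle arrest, DNA repair and DNA demethylation. The 3 genes answer to different signals: Gadd45a is a classical target of p53 and of DNA damage, Gadd45b (first named Myd118) is induced by NF-kB and TGF-beta, and Gadd45g (also known as CR6) by cytokines.

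All 3 genes are short. In GENCODE M21 on mm10, Gadd45a lies on the minus strand of chromosome 6 at chr6:67035096-67037457, Gadd45b on the plus strand at chr10:80930073-80932204 and Gadd45g on the plus strand at chr13:51846678-51848468. No annotated gene overlaps Gadd45b or Gadd45g, whereas E230016M11Rik, a noncoding gene on the opposite strand, overlaps Gadd45a. The strand setting of the counting was not given in the sources used here, and whether reads of this pair were exchanged was not tested. E230016M11Rik had 9.37, 34.8 and 7.91 CPM in the fibroblast-like cells of CON, UV and Rux (CPM, defined with the cell classes).

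The promoters are shown because the genes are known to answer to different signals. The windows come from RefSeq on GRCm38.p6 and run 5′ to 3′ in the sense of each gene, up to the outermost start of either annotation, which left out the last 50 bases before the RefSeq start for Gadd45a and 18 for Gadd45b. They are chr6:67037458-67037657 (minus strand), chr10:80929841-80930072 (plus strand) and chr13:51846425-51846674 (plus strand). Capitals mark the CCAAT box (CCAAT), the E-box (CACGTG), the TATA box (TATAAA) and the octamer (ATTTGCAT), each searched on both strands.

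Gadd45a: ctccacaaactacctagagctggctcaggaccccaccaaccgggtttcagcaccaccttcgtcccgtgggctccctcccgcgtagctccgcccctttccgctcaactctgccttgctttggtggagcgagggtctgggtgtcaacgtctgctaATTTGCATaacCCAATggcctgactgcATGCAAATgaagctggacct
Gadd45b: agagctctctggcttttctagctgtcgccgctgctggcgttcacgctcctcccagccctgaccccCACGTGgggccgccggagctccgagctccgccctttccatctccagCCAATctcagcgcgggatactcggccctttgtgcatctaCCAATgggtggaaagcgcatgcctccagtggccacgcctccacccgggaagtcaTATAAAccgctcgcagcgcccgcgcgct
Gadd45g: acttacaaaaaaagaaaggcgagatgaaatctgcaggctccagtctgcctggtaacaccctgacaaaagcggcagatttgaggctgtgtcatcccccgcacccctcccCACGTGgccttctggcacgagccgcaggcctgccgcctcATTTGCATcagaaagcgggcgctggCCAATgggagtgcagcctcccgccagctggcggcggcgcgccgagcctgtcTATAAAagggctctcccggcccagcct

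The Gadd45a window held 2 octamers, starting 97 and 70 bases before the RefSeq start, on either side of a CCAAT box at 86 bases. A TATA box at the usual place could not be seen in it, since the last 50 bases were left out. The octamer was found in 1.32% of 32817 RefSeq promoter windows of that length. Gadd45g held 1 octamer, which 1.60% of windows of its length held, together with an E-box, a CCAAT box and a TATA box 27 bases before the start. Gadd45b held 2 CCAAT boxes, an E-box and a TATA box, but no octamer. A CCAAT box is common, at 28.4%, 32.4% and 33.8% of windows of the 3 lengths, and the TATA box stood in 11.9% and 12.4% of windows as long as those of Gadd45b and Gadd45g. The E-box was held by 5.41% and 6.02% of windows of these lengths. The letters of a STAT site (TTCNNNGAA), of an AP-1 site (TGANTCA) and of a cyclic AMP response element (TGACGTCA) were found in none of the 3 windows, and those of an EGR1 site (GCGNGGGCG) only in Gadd45b, as in 4.08% of windows. These searches concern the letters of the windows and say nothing about binding.

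Between 9386 and 10885 cells per library were retained, with a median of 7540 UMIs in CON, 7639 in UV and 9437.5 in Rux (a UMI is a tag that marks 1 captured transcript). The libraries went against the recorded sex: Xist, the RNA that silences an X chromosome in females, had 13 or 14 UMIs per library, and the Y-linked Ddx3y 111 to 121 CPM, in all 3 alike. Libraries shared 28 to 50 cell barcodes in pairs. Clusters were named from marker genes, and 8 classes had at least 100 cells in each library: fibroblast-like (FB), epithelial-like (EPI, which pools basal and suprabasal keratinocytes, hair follicle and sebaceous gland), lymphatic (LEC) and vascular (VEC) endothelial-like, pericyte-like (PCY), Schwann-like (SCH), lymphocyte-like (LYM) and myeloid-like (MYE) cells. FB-like cells numbered 3324, 4959 and 4713 in CON, UV and Rux, and EPI-like cells 3679, 1912 and 1534. Another 7 clusters could not be named and are left out of the class values. They held 1579, 1398 and 1128 cells, or 14.5%, 13.5% and 12.0% of CON, UV and Rux. Skeletal muscle-like and red blood cell-like cells, with under 100 cells in at least 1 library, were not followed. The mix of clusters differed between libraries: cluster 0 (Myoc, Abca8a) was the largest of FB-like cells in CON and cluster 1 (Saa3, Timp1) in UV and Rux, and cluster 11 (Krt1, Krt10) had 714 EPI-like cells in CON, 26 in UV and 92 in Rux. Levels are the UMIs of a gene summed over the cells of a class and divided by all UMIs of those cells, on the CPM scale. Ratios are log2 of 2 such values. Intervals in parentheses are 95% intervals for counting error only, and since each condition had 1 library, no difference has a replicate check. The intervals treat each UMI as an independent draw and leave out the spread between cells, so they are too narrow for that spread. Whether intervals overlap is therefore a description and no test of a difference.

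Gadd45a, the p53-responsive member, was spread unevenly over the skin. In FB-like cells it had 75.2 CPM (71.6 to 78.9) in CON, 54.4 (52.1 to 56.9) in UV and 14.4 (13.4 to 15.5) in Rux. In EPI-like cells it had 51.4 CPM in CON, 90.4 in UV and 59.5 in Rux. The order of the FB-like and EPI-like classes was therefore reversed between CON and the irradiated libraries, and the intervals did not overlap in any library. SCH-like cells had 161 CPM (124 to 206) in CON, 77.6 (56.4 to 104) in UV and 63.0 (39.9 to 94.5) in Rux, the highest of the 8 classes in CON and Rux, although the intervals of SCH-like and EPI-like cells overlapped in UV and in Rux. MYE-like cells had 73.9, 42.1 and 27.0 CPM and LYM-like cells 39.4, 25.7 and 20.7 CPM in CON, UV and Rux. In LEC-like, VEC-like and PCY-like cells, CON and UV lay between 22.1 and 41.2 CPM. In Rux these 3 classes had 14.6, 15.8 and 14.6 CPM, and with FB-like cells they were the lowest 4 of the 8 classes, with intervals that overlapped.

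The highest Gadd45a levels stood in smaller classes with fewer than 100 cells in at least 1 library. NEU-like cells, the neutrophil-like class with S100a8 and S100a9, had 421 CPM (316 to 549) in CON from 50 cells, 769 (532 to 1074) in UV from 22 cells and 476 (428 to 527) in Rux from 227 cells. MC-like cells, mast cells by Cpa3 and Mcpt4, had 303, 332 and 345 CPM, with intervals that overlapped throughout. MP-like cells, muscle progenitors with Myod1, had 373 CPM (323 to 429) in CON, 169 (116 to 239) in UV and 95.6 (49.4 to 167) in Rux, so CON stood above both irradiated libraries. MEL-like cells, the pigment cells, had 62.0, 73.1 and 92.0 CPM, and neighbouring libraries overlapped.

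Gadd45b, the NF-kB-responsive member, was highest among the 8 classes in PCY-like cells, the contractile cells around vessels. PCY-like cells had 2813 CPM (2721 to 2907) in CON, 1939 (1872 to 2007) in UV and 1336 (1264 to 1411) in Rux. Among the 8 classes this was the first place in all 3 libraries, although in Rux the intervals of PCY-like and SCH-like cells overlapped. FB-like cells came next in CON with 1597 CPM (1580 to 1614) and had 454 (447 to 461) in UV and 504 (498 to 510) in Rux. LEC-like cells had 1361, 828 and 546 CPM, and SCH-like cells 1289, 936 and 1229.9 CPM, so the intervals of SCH-like and LEC-like cells overlapped in CON, and SCH-like cells stood above in UV and Rux. EPI-like cells had 857 CPM in CON, 446 in UV and 301 in Rux. MYE-like cells had 643, 532 and 457 CPM, VEC-like cells 374, 329 and 295 CPM, and LYM-like cells 471, 265 and 277 CPM. In UV, MYE-like, LEC-like and SCH-like cells also stood above FB-like cells, and in Rux LEC-like and SCH-like cells did. NEU-like cells had 1404 CPM (1206 to 1624) in CON, 1221 (917 to 1593) in UV and 1654 (1564 to 1748) in Rux. These intervals overlapped between every pair of libraries. The log2 ratio of Rux over CON was 0.23 (0.01 to 0.47) and that of Rux over UV 0.43 (0.05 to 0.86), with 22 cells in UV.

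Gadd45g, the cytokine-responsive member, was higher in FB-like, PCY-like, VEC-like and LEC-like cells than in the other 4 of the 8 classes in each library. In Rux, however, the intervals of LEC-like and of VEC-like cells each overlapped that of SCH-like cells. FB-like cells had 1622 CPM (1605 to 1639) in CON, 666 (657 to 674) in UV and 340.0 (335 to 345) in Rux. PCY-like cells had 1283, 809 and 408 CPM, VEC-like cells 798, 563 and 275 CPM, and LEC-like cells 790.3, 474 and 229 CPM. In each of these 4 classes the level was highest in CON and lowest in Rux, and the intervals of the libraries did not overlap. VEC-like and LEC-like cells did not differ beyond counting error in CON. EPI-like cells had 105, 101 and 53.1 CPM, MYE-like cells 115, 75.9 and 43.4 CPM, and LYM-like cells 81.2, 62.6 and 34.3 CPM. SCH-like cells had 194, 234 and 214 CPM, with overlapping intervals. The first class stood 19.97 times above the last in CON, against 12.9 times in UV and 11.9 times in Rux.

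**Figure D1:**
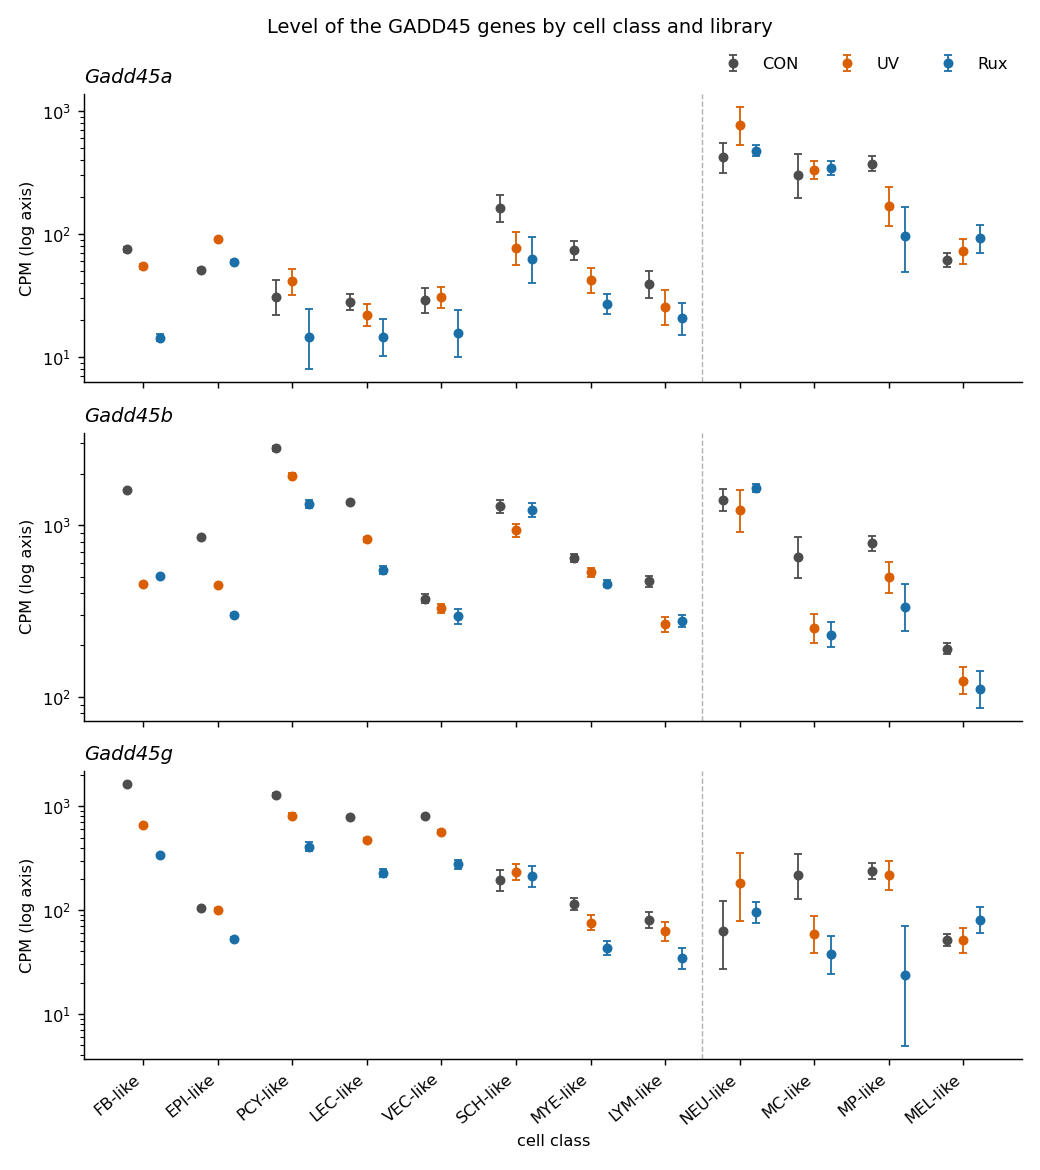
Level of each gene in CPM (log axis) by cell class, with 1 point per library (CON grey, UV orange, Rux blue) and exact 95% Poisson intervals as bars. Classes right of the dashed line had under 100 cells in at least 1 library. In FB-like cells Gadd45a is lowest in Rux at 14.4 CPM, Gadd45b is 1597 CPM in CON, 454 in UV and 504 in Rux, and Gadd45g is 1622, 666 and 340.0 CPM.

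UV over CON asks what 12 weeks of light left behind a day after the last exposure. In FB-like cells all 3 members were lower in UV: Gadd45b by 3.52-fold (log2 ratio −1.81, −1.84 to −1.79), Gadd45g by 2.44-fold (−1.29, −1.31 to −1.26) and Gadd45a by 1.38-fold (−0.47, −0.56 to −0.37). Scaling by the median of gene ratios moved these to −1.68, −1.16 and −0.34, and with subclusters weighted as in CON they were −1.15, −0.51 and −0.31. A gene is called here when it is at least 1.5-fold apart, which in FB-like cells held for 7.93% of 8242 counted genes downwards and 6.56% upwards, so 2 of the 3 members were called lower. The call of Gadd45g is lost with the weighted subclusters. Only 0.231% of the counted genes had a lower ratio than Gadd45b. In EPI-like cells Gadd45a stood the other way, 1.76-fold higher in UV (log2 ratio 0.81, 0.75 to 0.87), a call made for 4.28% of 8716 genes upwards and 3.45% downwards. Gadd45b was 1.92-fold lower there (−0.94, −0.96 to −0.92), and Gadd45g differed by −0.05 (−0.10 to −0.01).

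Over the 8 classes, Gadd45b was below 0 in UV over CON in 8, and called lower in 4 (FB, EPI, LEC and LYM), with ratios from −1.81 to −0.18. Gadd45g was below 0 in 7 and called lower in 4 (FB, LEC, PCY and MYE). Gadd45a was below 0 in 5 and called lower in 3 (SCH, LYM and MYE), and it was called higher in EPI-like cells alone. Outside the 8, its ratio was 0.88 (0.20 to 1.51) in NEU-like cells, which had 22 cells in UV. In MP-like cells it was −1.12 (−1.73 to −0.60). Its ratio was −1.05 (−1.65 to −0.48) in SCH-like, −0.81 (−1.23 to −0.40) in MYE-like and −0.61 (−1.23 to −0.02) in LYM-like cells, while the intervals of LEC-like, VEC-like and PCY-like cells held 0. LYM-like cells of CON included cluster 42 (Trdc, Cd3e), with 95 cells there, 2 in UV and 1 in Rux. Among all counted genes, 4.97% were called lower in LEC-like, 6.57% in VEC-like, 9.13% in PCY-like, 11.6% in SCH-like, 14.2% in LYM-like and 12% in MYE-like cells.

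Rux over UV asks what the JAK1/2 inhibitor changed on top of the same light. It shares the UV library with the first contrast, so the contrasts are set side by side and not correlated. In FB-like cells Gadd45a was 3.78-fold lower in Rux (log2 ratio −1.92, −2.04 to −1.80), and 0.149% of 8052 counted genes had a lower ratio. Gadd45g was 1.96-fold lower (−0.97, −0.997 to −0.94), and Gadd45b was within the threshold at 0.15 (0.12 to 0.18). Calls were made for 5.44% of genes downwards and 3.43% upwards in that class. In EPI-like cells, where 2.38% were called lower and 2.69% higher, the ratios were −0.60 (−0.67 to −0.53) for Gadd45a, −0.57 (−0.60 to −0.54) for Gadd45b and −0.93 (−1.005 to −0.86) for Gadd45g.

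Gadd45a and Gadd45g were below 0 in Rux over UV in 8 of 8 classes, and were called lower in 6 and 7 of them. Gadd45a in SCH-like and LYM-like cells, and Gadd45g in SCH-like cells, had intervals that held 0. Gadd45b was below 0 in 5 classes and called lower only in LEC-like cells, at −0.60 (−0.69 to −0.51). It was above 0 in FB-like and SCH-like cells, the latter at 0.39 (0.21 to 0.58), and within counting error in VEC-like and LYM-like cells. Downward calls covered 5.19% of counted genes in LEC-like, 8.97% in VEC-like, 11.3% in PCY-like, 15.5% in SCH-like, 7.66% in LYM-like and 12.6% in MYE-like cells. Set against CON, Rux FB-like cells had 5.23-fold less Gadd45a, 3.17-fold less Gadd45b and 4.77-fold less Gadd45g, whereas Gadd45a in Rux EPI-like cells was 1.16-fold above CON. Outside the 8, Gadd45g in Rux over UV was called higher in MEL-like cells, at 0.65 (0.06 to 1.24), with 35 cells in Rux. It was below 0 in NEU-like, MC-like and MP-like cells, with intervals that held 0 in NEU-like and MC-like cells. Gadd45a was above 0 in MEL-like and MC-like cells, with intervals that held 0, and below 0 in NEU-like and MP-like cells. In MP-like cells the Gadd45a interval held 0 as well.

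**Figure D2:**
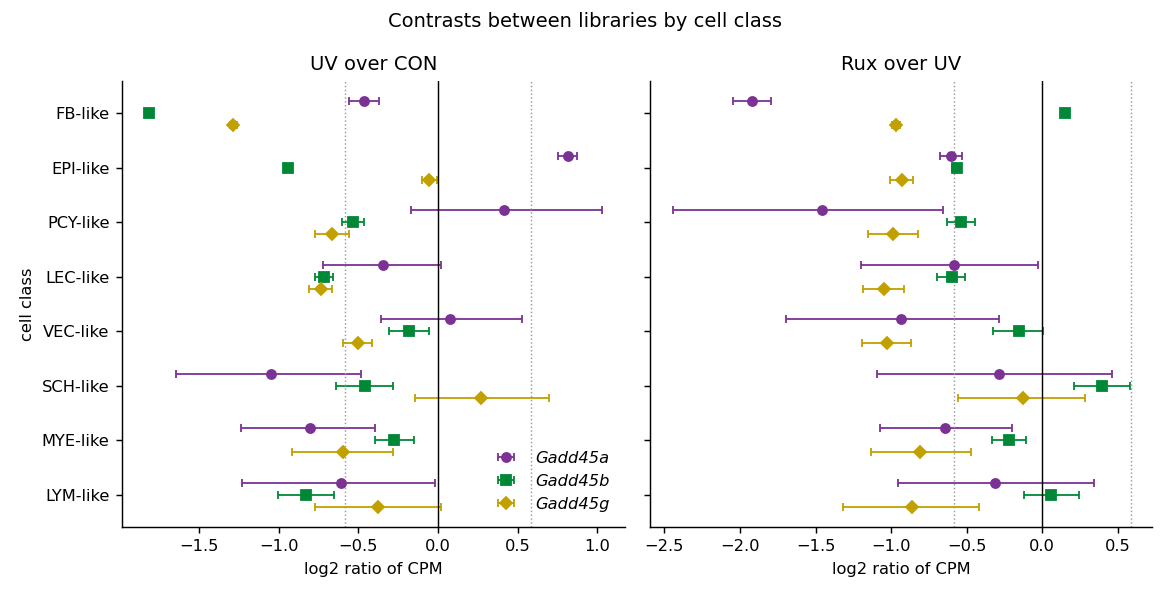
Log2 ratio of CPM between libraries by cell class for Gadd45a (circles), Gadd45b (squares) and Gadd45g (diamonds), UV over CON at left and Rux over UV at right. Bars are exact 95% intervals, and dotted lines mark a 1.5-fold difference. Gadd45a lies right of 0 in EPI-like and left of 0 in FB-like cells in UV over CON, and all its points and those of Gadd45g lie left of 0 in Rux over UV.

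The ratios of FB-like cells were next taken within single clusters, since the mix of clusters differed between libraries. The members and all immediate-early and heat-shock genes were left out when the subclusters were made, and the members when the clusters were made. In Rux over UV, Gadd45a was below 0 in 9 of 9 FB-like clusters with at least 50 cells in both libraries, with ratios between −2.33 and −1.004. Gadd45g was below 0 in 9 of 9, from −1.98 to −0.29, and Gadd45b in 3 of 9. In UV over CON, Gadd45b was below 0 in 7 of 7 clusters, from −2.21 to −0.93, and Gadd45g was below 0 in 7 of 7, from −1.04 to −0.54. Gadd45a was below 0 in 5 of 7, from −1.17 to 0.52, so its direction was not shared by all clusters.

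Subclusters of FB-like cells gave the levels in more detail. The largest in CON, subcluster 0 with 1618 CON, 481 UV and 263 Rux cells, had 2413 CPM of Gadd45g in CON, 1822 in UV and 219 in Rux. Its Gadd45b was 2056, 947 and 311 CPM, and its Gadd45a 98.3, 67.6 and 10.6 CPM. In subcluster 1, with 374, 392 and 1023 cells, Gadd45b was 614, 431 and 638 CPM and Gadd45g 566, 478 and 429 CPM, whereas Gadd45a was 73.8, 93.8 and 19.4 CPM. Over 12 subclusters with at least 50 cells in both libraries, the Rux over UV ratio of Gadd45g was lowest in subcluster 0 (−3.05) and nearest 0 in subcluster 1 (−0.16), and that of Gadd45a spanned −3.30 to −1.03. Gadd45b was below 0 in 7 of the 12, with a median of −0.13 and a range from −1.60 to 0.57, where 3 of 9 clusters were below 0. In UV over CON, 10 subclusters had at least 50 cells in both libraries. There Gadd45g was below 0 in 9 and called lower in 4, with a median of −0.46 and a range from −1.59 to 0.02. Gadd45b was below 0 in 10 of these 10, and Gadd45a in 7. With 10 subclusters weighted as they stood in CON, the UV over CON ratios were −0.31, −1.15 and −0.51 for Gadd45a, Gadd45b and Gadd45g, and the Rux over UV ratios −2.26, −0.70 and −2.03. The weighting turned Gadd45b in Rux over UV from 0.15 to −0.70. Subcluster 0, the largest in CON, weighed most here and had the lowest Gadd45b ratio of the 12 (−1.60). How far it alone made the turn was not tested.

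**Figure D3:**
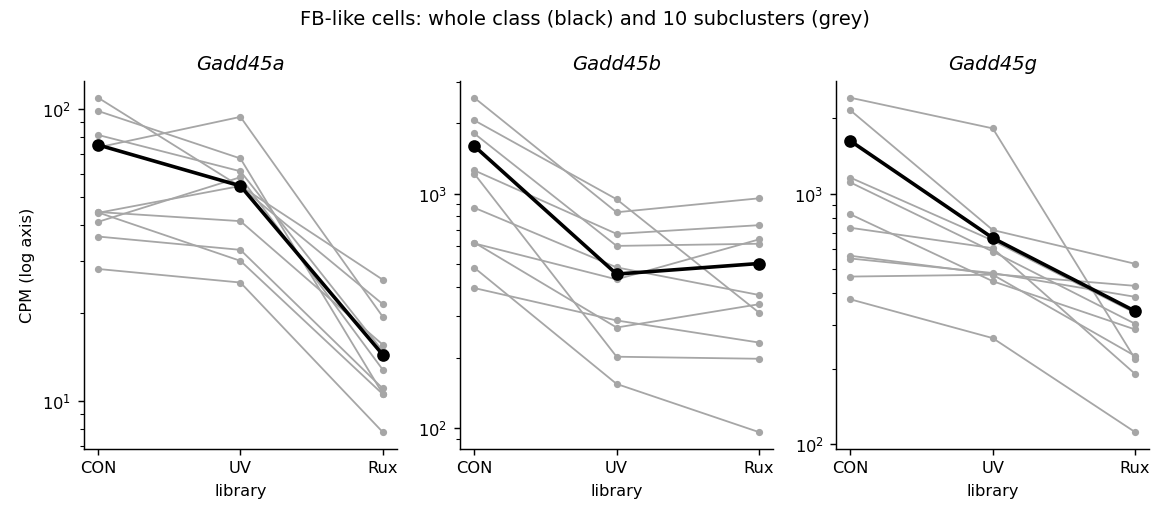
CPM (log axis) of each gene in FB-like cells by library, with the whole class in black and the 10 subclusters that reached 50 cells in every library in grey. Every grey line of Gadd45a is lower in Rux than in UV, every line of Gadd45b is lower in UV than in CON, and 1 line of Gadd45g runs from 1822 CPM in UV to 219 CPM in Rux.

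Within EPI-like cells Gadd45a was above 0 in UV over CON in 8 of 9 clusters, with a median of 0.82 and a range from −0.00 to 1.63. The largest ratio was in cluster 37, basal keratinocyte-like with Krt5 and Krt14, and the lowest in the dividing cluster 27 with Mki67 and Top2a. Gadd45b was below 0 in 8 of 9 clusters, from −1.81 to 0.63. The exception was cluster 8, marked by the hair follicle stem cell genes Lgr5 and Lhx2, where Gadd45b was 0.63 and Gadd45g 0.91 above CON, and −1.54 and −1.67 in Rux over UV. Without cluster 11 the Gadd45a ratio of EPI-like cells was 0.75. In Rux over UV, Gadd45b and Gadd45g were below 0 in 9 of 9 clusters and Gadd45a in 8 of 9.

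**Figure D4:**
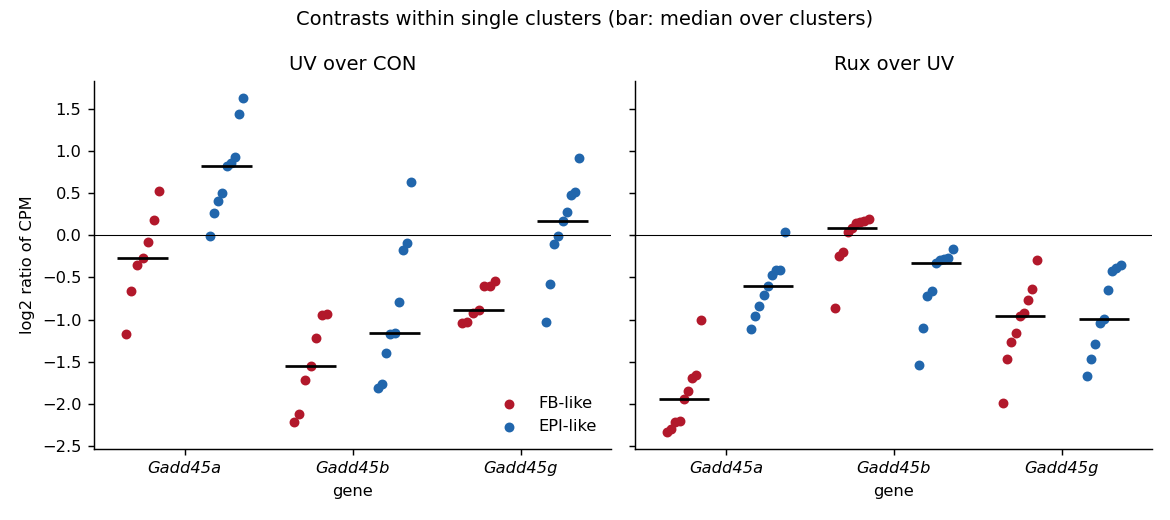
Log2 ratio of CPM within single FB-like (red) and EPI-like (blue) clusters with at least 50 cells in both libraries, UV over CON at left and Rux over UV at right. Each point is 1 cluster and the bar is their median. In UV over CON the EPI-like median of Gadd45a is 0.82 and the FB-like median −0.27, and in Rux over UV the FB-like median of Gadd45a is −1.93 and all its FB-like points lie below 0.

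Shares of cells with a UMI followed the sums. For these shares each cell was thinned to 2000 UMIs, and shallower cells were left out (136, 256 and 133 FB-like cells in CON, UV and Rux). A Gadd45b UMI was then found in 69.4% of FB-like cells in CON, 42.7% in UV and 46.2% in Rux (83.9%, 70.5% and 79.7% before thinning). Gadd45g was found in 64.2%, 49.1% and 37.9% (79.2%, 73.1% and 68.9% before), and Gadd45a in 12.0%, 8.42% and 2.84% (24.4%, 23.2% and 11.2% before). The Gadd45a share of FB-like cells in Rux stood near the 2.61% of LYM-like and 2.07% of LEC-like cells of that library, and at this level free RNA in the droplets and transcription in the cells cannot be told apart. In EPI-like cells the Gadd45a share was 8.26%, 14.5% and 9.71%. Before thinning, the 10% of FB-like cells with the most Gadd45b UMIs carried 44.9%, 52.6% and 49.7% of them in CON, UV and Rux. Up to 169 UMIs were in 1 cell. The cells were not matched for depth here, so these values also hold differences in depth.

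Gadd45b and Gadd45g tended to be found in the same FB-like cells. In CON 72.9% of cells with a Gadd45b UMI also had Gadd45g, against 44.7% of cells without Gadd45b. In UV these shares were 59.0% and 41.6%, and in Rux 43.7% and 33.0%. The correlation of their thinned log2 counts over cells was 0.46 in CON, 0.30 in UV and 0.15 in Rux, over 3188, 4703 and 4580 cells of 1 library each. Those of Gadd45a with either were 0.13 or lower. PCY-like cells had 0.46, 0.49 and 0.35 for Gadd45b with Gadd45g. In LYM-like and MYE-like cells the pair ranged from −0.12 to 0.17, in sparse counts.

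The immediate-early genes, which include Fos, Jun and Egr1, also differed between the libraries. They are switched on within minutes of a stimulus, tissue dissociation included. Their summed level over 26 genes in FB-like cells was 28614 CPM in CON, 16039 in UV and 17805 in Rux, and that of 11 heat-shock genes 4235, 3786 and 3420 CPM. The immediate-early sum of FB-like cells was thus higher in Rux than in UV, whereas Gadd45a and Gadd45g were lower. In EPI-like cells the immediate-early sum was 11054, 9520 and 9353 CPM, and over the 8 classes it ran from 7279 to 28614 CPM. Over single FB-like cells, Gadd45b correlated with the immediate-early sum at 0.65 in CON, 0.54 in UV and 0.54 in Rux, and Gadd45g at 0.57, 0.45 and 0.24. Gadd45a had 0.18, 0.11 and −0.01. These correlations share the library and the depth of each cell. With clusters made without the immediate-early and heat-shock genes, the UV over CON ratios of FB-like cells were −0.47, −1.82 and −1.29 for Gadd45a, Gadd45b and Gadd45g. The part of dissociation in the levels was not tested.

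The genes around the GADD45 family were read from lists, which were chosen with earlier results of these data known. Ppp1r15a (GADD34), the 1 counted of 2 other genes with a GADD name and a phosphatase subunit of the stress response, was 917 CPM in CON, 392 in UV and 298 in Rux FB-like cells. Among 13 counted partners and effectors of GADD45 proteins, 1 was called higher and 1 lower in UV over CON, with a median log2 ratio of −0.07 against −0.10 over all counted genes. In Rux over UV 1 was called lower and 0 higher (median 0.04, against 0.02 over all counted genes). For these and for the p53 targets in FB-like cells, all counted genes had 7.93% called lower and 6.56% higher in UV over CON. In Rux over UV the shares were 5.44% and 3.43%. Mapk9 (JNK2) had 42.5, 136 and 66.0 CPM, and Cdkn1a (p21), the cyclin-dependent kinase inhibitor, 453 CPM in CON and 222 in UV. The p53 targets, the class to which Gadd45a belongs, had a median of −0.32 with 7 of 17 called lower and 0 higher. Phlda3 (−1.58), Fas (−1.33), Eda2r (−1.19) and Btg2 (−1.10) were the lowest. Over all counted genes 7.93% were called lower and the median was −0.10. In Rux over UV their median was 0.25, with 3 called higher, among them Trp53inp1 (1.07), and 1 lower, Fas (−0.69). In EPI-like cells the p53 median was 0.17 in UV over CON, with 3 of 20 called higher and 1 lower, beside 4.28% and 3.45% of all counted genes. The list did not follow Gadd45a in every class. Its median was 0.53 in VEC-like cells, where Gadd45a was 0.08 (−0.36 to 0.52). In SCH-like cells it was −0.05, where Gadd45a was −1.05. The medians were 0.09 in LYM-like, 0.04 in PCY-like, −0.02 in LEC-like and −0.28 in MYE-like cells.

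Of 15 NF-kB feedback and target genes in FB-like cells, 8 were called lower and 0 higher in UV over CON (median −0.70), beside 7.93% and 6.56% of all counted genes. Tnfaip3, which shuts off NF-kB signaling, had 300 CPM in CON, 130 in UV and 375 in Rux, and Nfkbia, the inhibitor IkB-alpha, 999.8 CPM in UV and 1696 in Rux. The median of the NF-kB list in Rux over UV was 0.15, with 3 called higher and 0 lower, beside 3.43% and 5.44% of all counted genes. Of 12 JAK-STAT feedback and target genes, 6 were called lower in UV over CON (median −0.59) and 3 in Rux over UV (median −0.45), and 0 were called higher in either. All counted genes had 7.93% called lower in the first contrast and 5.44% in the second. Socs3, a feedback inhibitor of cytokine receptors, had 935, 430 and 129 CPM in CON, UV and Rux, and Socs1 100, 50.5 and 18.5 CPM. Irf1, an interferon-responsive factor, had 670 CPM in CON and 207 in UV.

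Of 8 TGF-beta targets, 3 were called lower in UV over CON and 2 higher in Rux over UV (medians −0.24 and 0.32). For these and the lists that follow, all counted genes had 7.93% called lower and 6.56% higher in UV over CON, and 5.44% and 3.43% in Rux over UV. Ccn2, a matricellular protein, had 187, 88.2 and 164 CPM in CON, UV and Rux. Of 9 counted genes of the integrated stress response, 4 were called lower in UV over CON and 1 higher in Rux over UV (medians −0.27 and −0.29). Of 26 immediate-early genes 14 were called lower in UV over CON (median −0.66), Nr4a2 (−1.98) and Egr1 (−1.61) most, while in Rux over UV 4 of 25 were called higher and 1 lower (median 0.12). The heat-shock list had medians of −0.21 and 0.10, with 2 of 11 called lower in UV over CON and 1 in Rux over UV. The phosphatases that switch off p38 and JNK had medians of 0.09 and 0.24 over 4 genes, with Dusp10 called higher (1.29) and Dusp1 called lower (−0.65) in UV over CON, and Dusp1 called higher (0.64) in Rux over UV.

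**Figure D5:**
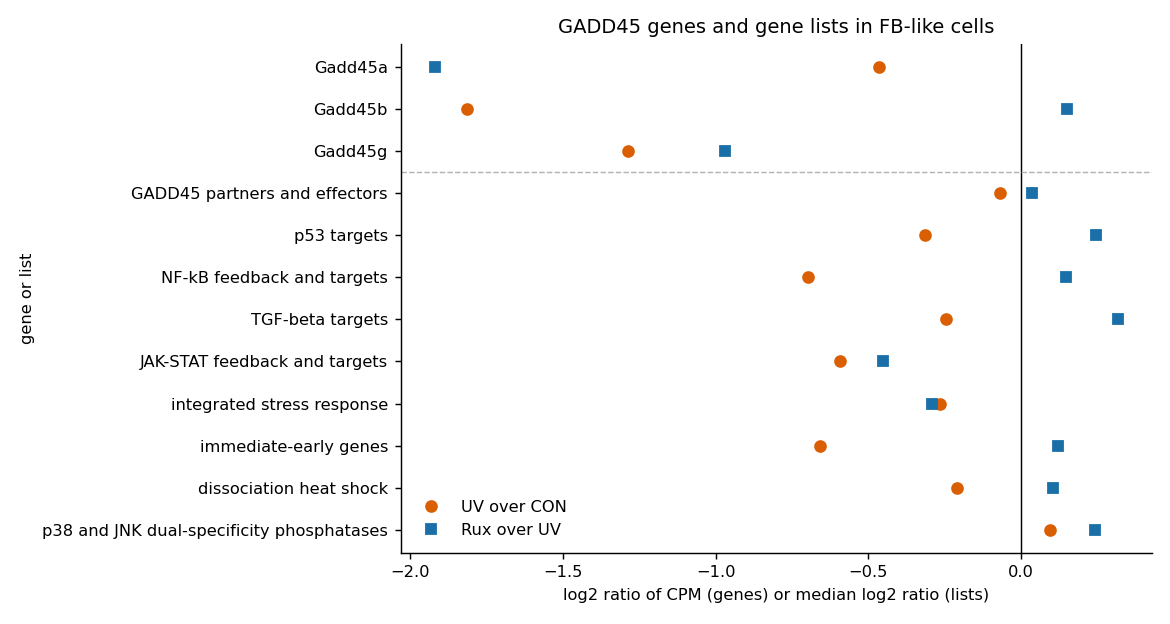
Log2 ratios of the GADD45 genes and median log2 ratios of 9 gene lists in FB-like cells, UV over CON as orange circles and Rux over UV as blue squares. Gadd45a is the farthest left in Rux over UV at −1.92, and among the lists the JAK-STAT and integrated stress response medians are below 0 in both contrasts.

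The likeness of other genes was measured by Pearson correlation of log2(CPM + 1) over 24 sums, the 8 classes in 3 libraries, among the 7212 genes that averaged 20 CPM or more. The 24 points share libraries, and genes of a class differ together, so these values only order the genes. For Gadd45g the nearest were Trip10 (0.92), Bag3 (0.92), Myc (0.92), Hipk3 (0.91) and Lamb2 (0.90). For Gadd45b they were Eif1b (0.79), Usp2 (0.77), Cpeb1 (0.77), Cystm1 (0.76) and R3hdm2 (0.76). For Gadd45a they were Dct (0.80), Tug1 (0.79), Scd1 (0.78) and Fa2h (0.78). Among the members, Gadd45b and Gadd45g correlated at 0.59, Gadd45a and Gadd45b at 0.25, and Gadd45a and Gadd45g at −0.07.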

How the data were processed

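Single-cell suspensions of dorsal skin, 1 library per condition, were sequenced with 10x Genomics 3′ v3.1 chemistry. The authors aligned reads to mm10 and deposited raw UMI counts for 32285 genes. The processing notes give Cell Ranger 6.1.2 and the file headers 7.0.0, versions that differ in whether intronic reads are counted by default. The matrices held 13170 (CON), 12411 (UV) and 11287 (Rux) cells with 165337289, 133972374 and 131570327 UMIs. Cells were kept from 200 genes upwards with no more than 10% of UMIs mitochondrial (12046, 11359 and 10222), and 1161, 1032 and 836 Scrublet doublets were removed, at 0.8% per 1000 cells. Seurat 5.3.0 in R 4.3.3 clustered the cells (2000 variable genes without the members, 30 components, resolution 1.5), and clusters were named by fixed markers, so a class may differ from the study's own. Python 3.11.15, scanpy 1.11.5, numpy 2.4.6 and scipy 1.17.1 gave the rest.

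UMIs were summed per class and library. CPM have exact Poisson intervals, log2 ratios a prior of 0.5 UMI and exact conditional binomial intervals, both at 95% and for counting error only. A gene was counted when it averaged 10 CPM or more with 20 or more UMIs over both libraries, and called at 1.5-fold. With 1 library per group there is no test and no p-value. In simulated UV over CON sums of FB-like cells, the ratio code gave the right sign for 100% of 200 genes set 2-fold apart among 8207. There 95.4% of intervals held the true value. The simulated sums were drawn as Poisson counts, the error that the intervals assume, so this checks the code only. It says nothing about the spread between cells or libraries in these data. The members, and the gene lists, were chosen with earlier results of these data known. The genes named were the members, up to 6 called genes per list with the largest ratios, and the 5 genes most like each member. A gene of a list and a gene most like a member are not reported here. Alternatives covered the cell filter, doublets, clustering, scaling, weighting and composition. Of the gene identifiers, 32158 were found in GENCODE M21.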

Additional observations from a re-analysis of the deposited data

Results flagged for a closer look

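The results below differ in direction between cell classes under the same contrast, with intervals that exclude 0 on both sides. With 1 library per condition the difference between classes was not tested, and the genes had been picked for such differences. For Gadd45a in UV over CON, the log2 ratio was 0.81 in EPI-like cells, against −0.47 in FB-like, −1.05 in SCH-like, −0.61 in LYM-like and −0.81 in MYE-like cells. For Gadd45b in Rux over UV, it was 0.15 in FB-like and 0.39 in SCH-like cells, against −0.57 in EPI-like, −0.60 in LEC-like, −0.54 in PCY-like and −0.22 in MYE-like cells. With subclusters weighted as in CON, where subcluster 0 weighed most, the ratio of FB-like cells was −0.70. In 1 of 11 settings the ratio of PCY-like cells was 0.04.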

How the results depend on the processing

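No paired analysis was possible because each condition had 1 library, and for the same reason no library could be left out. Of 66 alternative log2 ratios in FB-like cells, 46 moved by less than their counting interval and 20 by more, and of 54 in EPI-like cells 42 and 12. The 54 alternative counts of classes below 0 were within 1.5 times the value reported. The counts of classes called lower moved in several settings. In UV over CON, Gadd45g went from 4 to 2 with the strict cell filter, which left 7 classes. With the loose filter, resolution 0.8, clustering without immediate-early and heat-shock genes, or median-of-ratios scaling, it went to 3. Gadd45a went from 3 to 2 with the strict filter, no doublet removal or median-of-ratios scaling. Gadd45b in Rux over UV went from 1 to 2 with equal weight per cell. In UV over CON of FB-like cells, median-of-ratios scaling gave −0.34, −1.68 and −1.16 for Gadd45a, Gadd45b and Gadd45g, equal weight per cell −1.68 for Gadd45b and −1.19 for Gadd45g, the strict cell filter −1.34 for Gadd45g, and leaving out cluster 0 −0.27 for Gadd45a and −1.05 for Gadd45g. Subclusters weighted as in CON gave −0.31, −1.15 and −0.51. In Rux over UV, median-of-ratios scaling gave 0.19 for Gadd45b and −0.93 for Gadd45g, equal weight −0.88 for Gadd45g, a low-UMI cluster added −1.03 for Gadd45g, and leaving out cluster 0 0.20 for Gadd45b and −0.88 for Gadd45g. Subclusters weighted as in CON gave −2.26, −0.70 and −2.03, which puts Gadd45b below 0, the 1 of 12 settings that did. In EPI-like cells Gadd45a in UV over CON ran from 0.75 to 0.88 over 10 settings, and Gadd45g from −0.18 to 0.03. The settings without clusters 0 and 11, the low-UMI cluster and all settings for EPI-like ratios were chosen after seeing the data. Among the 8 classes Gadd45a rested on as few as 14 UMIs, in PCY-like cells of Rux, and on 12 in MP-like cells of Rux.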
